A study of Mus musculus with 28 samples.

Results

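The proteasome genes of the mouse frontal cortex were described in 20-month-old mice with 2, 1 or 0 copies of a Tardbp allele that encodes TDP-43 with the Q331K substitution. Members were the genes of the count table named Psma to Psmg with a number, without names holding -ps, whose mean over the 28 libraries was at least 1 count per 1e6 counts (CPM). The rule found 47 genes among 25900 gene identifiers. It used no difference between genotypes. Of 49 matching names, Psma8 at 0.365 CPM and Psmb11 at 0.126 CPM fell under the minimum, and Psmc3ip at 1.19 CPM and Psmb9 at 1.44 CPM were the members just above it. Psma8 encodes a testis form of an alpha subunit and Psmb11 the catalytic subunit of the thymus. Psmc3ip matched by name only: it encodes a recombination factor and is no part of the proteasome, which left 46 genes of subunits, activators, the inhibitor and assembly factors. The pseudogene-named Psme2b-ps, at 4.54 CPM, was left out by the rule.

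The proteasome is the protease complex that degrades proteins marked with ubiquitin. Its 20S core is a barrel of alpha rings, which gate the entrance, and beta rings, which hold the active sites. The 19S cap recognises ubiquitin chains, removes them and unfolds the substrate with a ring of ATPases. Inclusions that hold ubiquitin and TDP-43 are the pathological mark of most amyotrophic lateral sclerosis (ALS), and Q331K is an ALS substitution, so the transcripts of this machinery are of interest in a cortex that carries it.

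PolyA RNA was sequenced from frontal cortex of knock-in homozygotes (HOM, 2 alleles, n = 10), heterozygotes (HET, 1 allele, n = 10) and wild-type mice (WT, no knock-in allele, n = 8), all on a C57BL/6 background. The labels give neither sex nor litter nor batch, nor whether every library is a separate animal. The p-values therefore rest on variation among libraries, part of which may be technical. Total counts ran from 30.5 to 62.6 M (M for 1e6 reads) in HOM, 45 to 74.9 M in HET and 46.5 to 64.1 M in WT, and HOM 2 at 30.5 M and HOM 1 at 32.8 M were the shallowest. Tardbp averaged 349 ± 18.9 CPM in HOM, 328 ± 13.3 CPM in HET and 321 ± 13.6 CPM in WT (SD). It was called higher in HOM than in WT, at a log2 fold change of 0.12 (edgeR's quasi-likelihood test, adjusted p = 0.0185). In HET against WT it was not called (edgeR adjusted p = 0.734). A count per gene reads mutant and wild-type alleles together and is no check of genotype. Markers of excitatory neurons of the cortex summed to 5755 to 6929 CPM in HOM, 6075 to 6754 CPM in HET and 5888 to 6419 CPM in WT, and those of the choroid plexus to at most 10.1 CPM in any library. Markers of the striatum summed to 112 to 291 CPM in HOM, 120 to 201 CPM in HET and 107 to 375 CPM in WT. Markers of meningeal fibroblasts summed to 40.2 to 160.1 CPM in HOM, 44.3 to 106 CPM in HET and 32.6 to 67.6 CPM in WT.

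Of 47 members, 0 passed the threshold in HOM against WT, in a comparison where 1226 of 16110 genes tested did (7.61%; edgeR's quasi-likelihood test in 1 fit of the 28 libraries, Benjamini-Hochberg adjusted p under 0.05 over all genes). Of all genes, 3.9% were called higher and 3.71% lower. DESeq2 also called 0 of the 47, and so did limma voom with a quality weight for each library. In that voom fit Psmd7 was just over the threshold, at an adjusted p of 0.0555. At an unadjusted p under 0.05 edgeR found 5 members, or 10.6%, against 24.6% of all genes. All 47 passed the filter on low counts. The members' median log2 fold change was 0.0011, against 0.0050 over all genes tested, with 24 members above 0 and 23 below. The HOM and WT libraries overlapped in CPM in each member: 0 of 47 had groups that did not overlap, against 0.459% of all genes tested, so nothing about the members is read from that count.

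The fit also bounds the size of a change. The 95% interval of HOM over WT lay within a log2 change of 0.2, or 1.15-fold, in either direction for 43 of 47 members, and within 0.1, or 1.07-fold, for 26. The other 4, Psmb8, Psmb9, Psmg4 and Psmc3ip, had the lowest CPM of the members. The interval of Psmb9 reached up to 0.42 and that of Psmc3ip down to -0.32, so changes up to that size lie within these intervals.

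**Figure D1:**
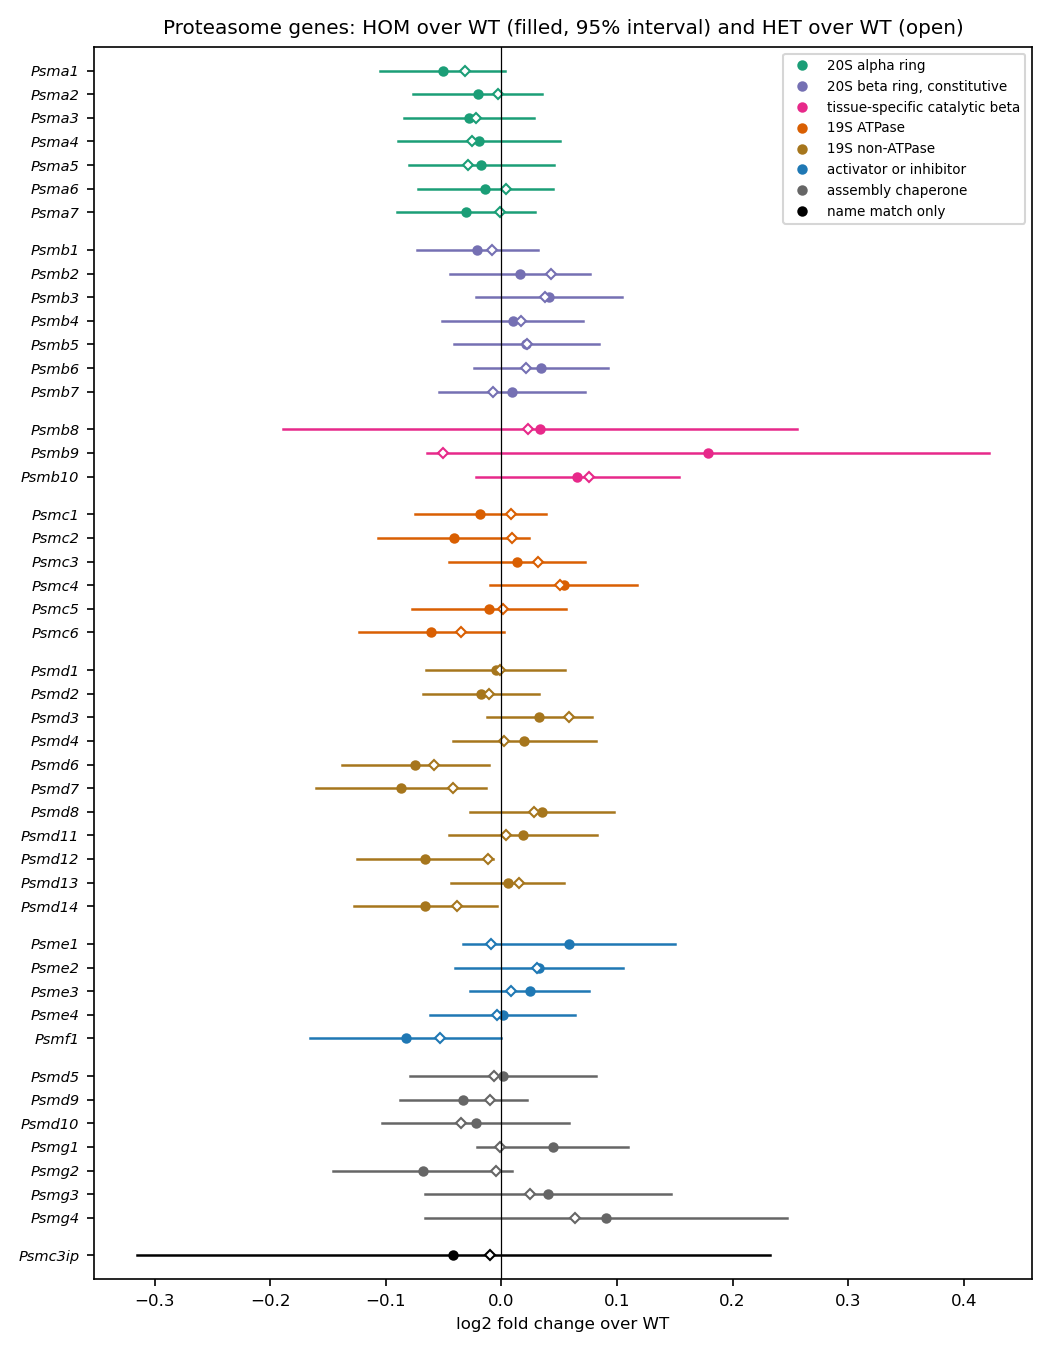
Log2 fold change over WT (x axis) of each of the 47 members (rows), grouped by role and coloured by class, with filled circles for HOM and its 95% interval as a line, and open diamonds for HET. Most points lie within 0.1 of the vertical line at 0. Psmb9 in HOM lies farthest to the right, at 0.18, and its interval crosses 0.

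Levels of different genes were compared only per length, as reads per kilobase of exon per 1e6 counts, with the union of a gene's exons as its length. Psmc5, an ATPase of the 19S base, had the highest level of the 47, at 107.7, followed by its neighbour in the ATPase ring Psmc1 at 62.3 and the catalytic subunit Psmb5 at 56.0. The median member stood at 20.4. By class, the median level per length was 39.6 for the ATPases, 35.4 for the constitutive beta subunits, 23.1 for the alpha subunits, 22.6 for the other 19S subunits, 9.42 for the activators and the inhibitor, 5.66 for the assembly factors and 0.999 for the beta subunits of the immunoproteasome. Exon union and longest transcript place genes differently: Psmb5 ranked 3 with the first and 10 with the second, while Psmc5 ranked 1 with either.

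**Figure D2:**
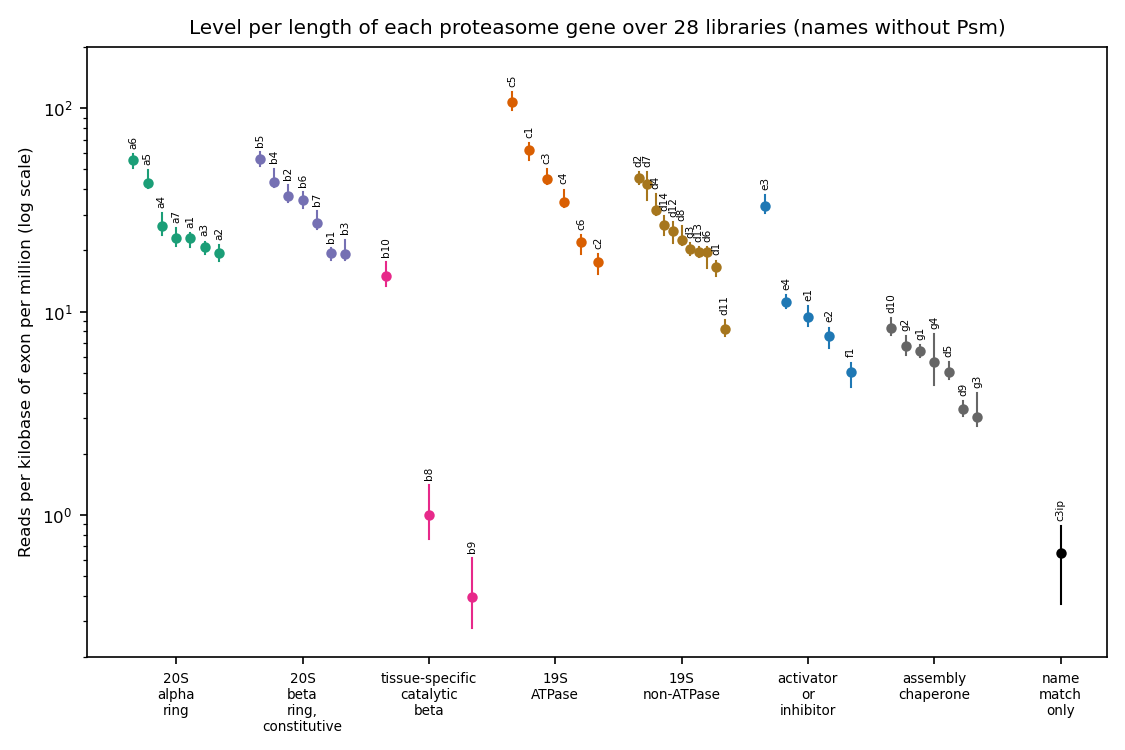
Mean level of each of the 47 members over the 28 libraries, as a point with its range over libraries as a line, on a log axis of reads per kilobase of exon per 1e6 counts, with names shortened by the letters Psm, grouped by role. Psmc5 is highest at 107.7 and Psmb9 lowest at 0.394.

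The genes also varied little within a genotype. The median member's SD between libraries of a genotype was 0.063 on the log2 scale, from 0.040 for Psmd3 to 0.30 for Psmc3ip, against 0.11 for all genes tested. Among genes at 40 to 200 CPM, where 33 members lie, their median SD was 0.061 against 0.073 for all 4477 genes, and 32 of the 33 were below that band median.

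Proteasome genes are known to share promoter elements: Nfe2l1 (NRF1) acts through an antioxidant response element when proteasomes fail, and ETS-family sites are common in housekeeping promoters. Windows of 250 bases before to 50 after the start, from RefSeq on GRCm38.p6, matched 40 of the 47 members by symbol. Psmb1, Psmb2, Psmb7, Psmc3, Psmd3, Psmd7 and Psmg2 had none. Both strands of each window were searched, and the motifs may overlap. The core TGACNNNGC was in 6 of 40 windows (15.0%), those of Psmb5, Psmb6, Psmc6, Psmd9, Psmd12 and Psme4, against 13.99% of the windows of all 27025 genes. CCGGAAG was in 15 of 40 (37.5%), against 9.93% of all. The 15 include Psmc3ip, which is no proteasome gene. The windows of all genes were not limited to genes expressed in this cortex, so these shares do not compare like with like. The core of the interferon-stimulated response element, GAAA and GAAA with a gap of 2 bases, was in 5 of 40 (12.5%), against 3.99%. It was in the windows of Psmb3, Psmd4, Psmd9, Psme1 and Psmg4, and none of Psmb8, Psmb9 and Psmb10 held it. The letters alone show no binding. The stretches shown are 100 bases upstream of any annotated exon, printed 5′ to 3′ with matches in capitals. Psmb5 and Psmb6, which each carry a constitutive active site, show TGACNNNGC. Psmb7, also a constitutive catalytic gene, had no window. Psmc6 and Psmd2, a cap ATPase and a cap scaffold, show CCGGAAG or its reverse complement. Psmb5 is on the minus strand at chr14:54618023-54618122, Psmb6 on the plus strand at chr11:70525257-70525356, Psmc6 on the plus strand at chr14:45329688-45329787, and Psmd2 on the plus strand at chr16:20651552-20651651.
Psmb5: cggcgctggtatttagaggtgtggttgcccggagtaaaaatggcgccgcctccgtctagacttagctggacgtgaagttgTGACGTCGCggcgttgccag
Psmb6: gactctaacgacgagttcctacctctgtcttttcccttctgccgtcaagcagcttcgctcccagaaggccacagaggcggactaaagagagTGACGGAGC
Psmc6: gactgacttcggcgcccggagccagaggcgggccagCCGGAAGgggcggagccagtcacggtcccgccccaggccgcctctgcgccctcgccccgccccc
Psmd2: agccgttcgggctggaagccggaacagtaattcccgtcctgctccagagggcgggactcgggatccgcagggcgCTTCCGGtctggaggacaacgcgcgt

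The alpha subunits form the outer rings of the core and the gate. All 7 had fitted HOM over WT values below 0, from -0.051 for Psma1 to -0.014 for Psma6, with a class median of -0.021, and the smallest adjusted p of edgeR's test was 0.234. Psma1 ran from 61.0 over a median of 67.4 to 71.1 CPM in HOM, from 64.9 over 67.6 to 70.3 CPM in HET and from 67.0 over 68.8 to 71.7 CPM in WT. The lowest HOM libraries lay under the WT range, 5 of 10, and the highest lay inside it. Psma6, the alpha subunit with the highest level per length, averaged 68.0 ± 3.60 CPM in HOM, 68.8 ± 1.72 CPM in HET and 68.6 ± 2.48 CPM in WT (SD).

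The constitutive beta subunits had 6 of 7 values above 0, from -0.021 for Psmb1 to 0.041 for Psmb3, a non-catalytic subunit, with a median of 0.016 and a smallest adjusted p of 0.434. Psmb3 averaged 44.5 ± 2.88 CPM in HOM, 44.3 ± 1.41 CPM in HET and 43.2 ± 1.18 CPM in WT (SD). The 3 catalytic genes of the constitutive core were nearly level. Psmb5 (chromosome 14, 54614120 to 54617995, minus strand in the deposited table), the chymotrypsin-like site, had 49.0, 50.2 and 53.5 CPM as lowest, median and highest in HOM, 46.9, 49.9 and 54.6 CPM in HET and 46.6, 49.98 and 53.7 CPM in WT. Its log2 fold change was 0.022 ± 0.031 (SE, edgeR's quasi-likelihood test, adjusted p = 0.709). Psmb6, the caspase-like site, had 63.8, 65.9 and 72.3 CPM in HOM, 62.4, 67.6 and 69.1 CPM in HET and 60.6, 65.6 and 68.7 CPM in WT, and its log2 fold change was 0.034 ± 0.029 (SE, edgeR adjusted p = 0.484). Psmb7, the trypsin-like site, had 87.2, 91.9 and 107 CPM in HOM, 89.99, 93.2 and 95.9 CPM in HET and 91.0, 93.6 and 96.2 CPM in WT, and HOM over WT was 0.0089 ± 0.031 on the log2 scale (SE, edgeR adjusted p = 0.894). For Psmb7 the HOM range reached above and below the WT range.

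The immunoproteasome replaces these 3 sites with Psmb8, Psmb9 and Psmb10, which interferon induces in many cells. Their HOM over WT values were all above 0 and none passed. Psmb8 (chromosome 17, 34197721 to 34201454) had 2.64, 3.47 and 4.05 CPM as lowest, median and highest in HOM, 2.58, 3.26 and 4.74 CPM in HET and 2.67, 3.30 and 4.20 CPM in WT. Its log2 fold change was 0.033 ± 0.11 (SE, edgeR adjusted p = 0.888), and the 3 ranges nearly coincide. Psmb9 (chromosome 17, 34181988 to 34187764) had 1.21, 1.46 and 2.24 CPM in HOM, 1.02, 1.32 and 1.58 CPM in HET and 1.13, 1.36 and 1.92 CPM in WT. Its log2 fold change was 0.18 ± 0.12 (SE, edgeR adjusted p = 0.368), the largest among the members. Only 2 HOM libraries lay above the highest WT library. Psmb10 (chromosome 8, 105935728 to 105938392) had 23.5, 25.4 and 29.8 CPM in HOM, 23.7, 25.8 and 28.1 CPM in HET and 22.7, 24.0 and 27.1 CPM in WT, with 0.066 ± 0.043 (SE, edgeR adjusted p = 0.360) as its log2 fold change.

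Psmb10 stood apart in level per length. It was at 14.9, while Psmb8 was at 0.999 and Psmb9 at 0.394. Per length, Psmb5 was 56.3-fold above Psmb8 in HOM, 57.3-fold in HET and 56.7-fold in WT, whereas Psmb7 was 1.83-fold above Psmb10 in HOM, 1.80-fold in HET and 1.91-fold in WT. Psmb6 was 84.3-fold above Psmb9 in HOM, 97.5-fold in HET and 92.6-fold in WT. These folds rest on the length used. With the longest transcript, Psmb5 was 31.7-fold above Psmb8 in HOM, 32.3-fold in HET and 31.97-fold in WT, and Psmb6 was 129-fold above Psmb9 in HOM, 149-fold in HET and 141-fold in WT. The log2 ratios of Psmb8 to Psmb5 were -5.81 ± 0.19 in HOM, -5.84 ± 0.31 in HET and -5.82 ± 0.22 in WT (SD), so the means of the genotypes lay closer together than 1 SD. With a bulk sample, fewer cells of a type and less RNA per cell cannot be told apart. Microglia express the immunoproteasome, and of 10 microglial markers 7 were called higher in HOM than in WT, 0 in HET against WT and 0 in HOM against HET. Their sum was 506 to 632 CPM in HOM, 461 to 538 CPM in HET and 451 to 532 CPM in WT. Their part in the values of Psmb8, Psmb9 and Psmb10 was not tested. Exons of Psmb9 overlap those of the protein-coding gene Tap1 on the other strand, so its reads are uncertain to that extent. The same holds for Psma4, Psmb7, Psmc3, Psmc3ip, Psmd1, Psmd13 and Psme1 with other protein-coding neighbours. Noncoding genes on the other strand overlap exons of Psma5, Psmb8 (498 bases), Psmd3 and Psmd9 (1849 bases). On the same strand, exons of Psmb5, Psmd1 and Psmg3 overlap those of a neighbour. Of 4 T cell markers, Cd3e, Cd3g and Cd8a were under 1 CPM. The fourth, Cd4, was tested and not called, at a log2 fold change of -0.22 and an adjusted p of 0.788. The 4 summed to 1.25 to 7.02 CPM in HOM, 1.33 to 5.48 CPM in HET and 1.73 to 14.4 CPM in WT.

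**Figure D3:**
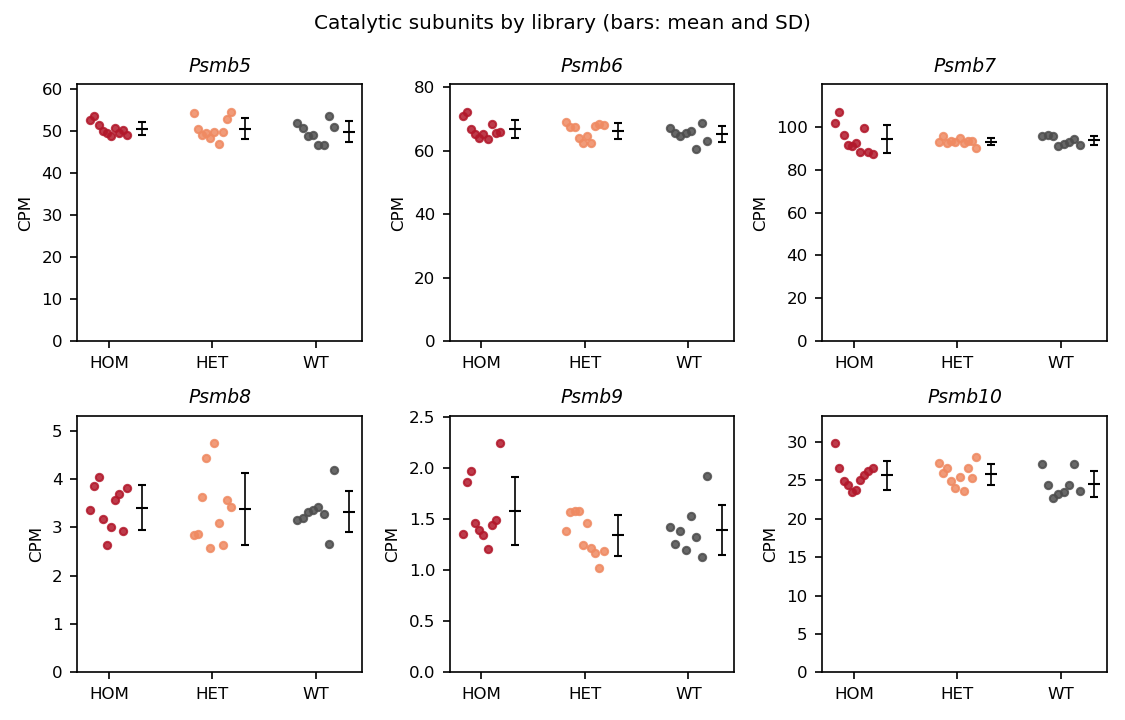
CPM of the 3 constitutive catalytic genes (top) and the 3 immunoproteasome genes (bottom) in every library of HOM (left), HET and WT, with the group mean and SD as bars. In all 6 panels the genotypes overlap, and the y axes start at 0.

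In the 19S base the ATPases unfold the substrate and open the gate. Their values in HOM over WT ran from -0.061 for Psmc6 to 0.054 for Psmc4, with 2 above 0 and 4 below and a smallest adjusted p of 0.221. Psmc6 had 67.4, 76.1 and 81.1 CPM as lowest, median and highest in HOM, 71.6, 77.4 and 79.8 CPM in HET and 74.5, 78.1 and 82.8 CPM in WT, and 4 HOM libraries lay under the lowest WT library. Psmc5, the most abundant per length, averaged 149 ± 9.70 CPM in HOM, 151 ± 3.27 CPM in HET and 151 ± 7.24 CPM in WT (SD), and HOM over WT was -0.011 ± 0.033 on the log2 scale (SE, edgeR adjusted p = 0.872).

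The non-ATPase subunits of the cap held 4 of the 5 members with an unadjusted p under 0.05, all with values below 0 and none past the adjusted threshold. Those 5 are 10.6% of the members, against 24.6% of all genes tested. The lid was singled out after the values were seen, and other lid genes, given below, had values above 0. Nothing about the lid is therefore read from these 4. Each of the 4, Psmd6, Psmd7, Psmd12 and Psmd14, encodes a subunit of the lid, the part of the cap that removes ubiquitin, and Psmd14 is the deubiquitinase itself, which works as a pair with Psmd7. The smallest p was that of Psmd7 (chromosome 8, 107580381 to 107588482, minus strand). It had 79.6, 93.3 and 110.0 CPM as lowest, median and highest in HOM, 93.6, 95.6 and 101 CPM in HET and 97.1, 98.6 and 103.5 CPM in WT. In HOM, 8 libraries lay under the lowest WT library, but HOM 2 lay above the highest. Its log2 fold change was -0.087 ± 0.036 (SE, edgeR adjusted p = 0.130).

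Without HOM 2 that of Psmd7 was -0.11 (edgeR adjusted p = 0.0207), and without HOM 1 and HOM 2, the shallowest libraries, -0.092 (edgeR adjusted p = 0.0210). Leaving out HOM 1 alone moved it the other way, to -0.067 (edgeR adjusted p = 0.182). The fits without HOM 2 and without both HOM 1 and HOM 2 were the only alternatives that called a member in HOM against WT. Psmd6 averaged 53.7 ± 3.36 CPM in HOM, 54.4 ± 1.81 CPM in HET and 56.6 ± 1.28 CPM in WT (SD), with a log2 fold change of -0.075 and an adjusted p of 0.134. Psmd12 averaged 64.0 ± 3.11 CPM in HOM, 66.5 ± 2.07 CPM in HET and 67.0 ± 2.63 CPM in WT (SD), with -0.066 and an adjusted p of 0.152. Psmd14 averaged 74.1 ± 4.75 CPM in HOM, 75.5 ± 1.88 CPM in HET and 77.5 ± 2.12 CPM in WT (SD), with -0.066 and an adjusted p of 0.174. Of the other lid genes, Psmd3, Psmd8, Psmd11 and Psmd13 had values above 0. Shfm1, the small lid subunit also called Sem1 and no member by name, had -0.063 and an adjusted p of 0.564. Psmd2, the scaffold of the base and the highest of its class per length, averaged 182 ± 7.99 CPM in HOM, 182 ± 5.52 CPM in HET and 184 ± 3.11 CPM in WT (SD).

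The activators open the core without ubiquitin. Psme1 and Psme2 encode the interferon-inducible PA28 ring. Psme1 averaged 21.4 ± 1.84 CPM in HOM, 20.4 ± 1.07 CPM in HET and 20.6 ± 1.09 CPM in WT (SD), and HOM over WT was 0.058 ± 0.045 on the log2 scale (SE, edgeR adjusted p = 0.445). Psme2 averaged 13.4 ± 0.62 CPM in HOM, 13.4 ± 0.71 CPM in HET and 13.2 ± 0.50 CPM in WT (SD), and its near copy Psme2b-ps was counted apart, so reads may be split between them. Psme3, the nuclear PA28 gamma, averaged 98.6 ± 5.16 CPM in HOM, 97.5 ± 1.61 CPM in HET and 96.96 ± 1.89 CPM in WT (SD), and Psme4, or PA200, averaged 94.1 ± 4.61 CPM in HOM, 93.8 ± 4.21 CPM in HET and 94.0 ± 3.47 CPM in WT (SD). Psmf1, which encodes the inhibitor PI31, had 27.3, 31.5 and 36.0 CPM as lowest, median and highest in HOM, 30.1, 32.4 and 34.4 CPM in HET and 31.9985, 33.0 and 36.2 CPM in WT. In HOM, 7 libraries lay under the lowest WT library and none above the highest, and its log2 fold change was -0.083 ± 0.041 (SE, edgeR adjusted p = 0.203).

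The assembly factors had 4 of 7 values above 0. Psmg2, a chaperone of the alpha ring, averaged 11.4 ± 0.74 CPM in HOM, 11.9 ± 0.47 CPM in HET and 11.9 ± 0.54 CPM in WT (SD), with a log2 fold change of -0.068 and an adjusted p of 0.268. Psmd10, or gankyrin, a chaperone of the ATPase ring and the highest of its class per length, averaged 12.2 ± 0.70 CPM in HOM, 12.1 ± 0.54 CPM in HET and 12.4 ± 0.75 CPM in WT (SD).

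The single knock-in allele was tested in HET against WT. There, 0 of 47 passed, as did 0% of the 16110 genes tested, with 1 member at an unadjusted p under 0.05 (9.6% of all genes), Psmd3 at 0.059 and an adjusted p of 0.428. DESeq2 called 0 of 47 and so did limma voom, with 12 and 14 of all genes. The members' median was -0.0014, with 22 above 0. In HOM against HET, 0 of 47 passed, against 0.0372% of all genes, and 0 had an unadjusted p under 0.05 (8.54% of all genes), with DESeq2 and limma voom at 0 too. The members' median there was -0.0072. On the number of alleles, a slope fitted over the 28 libraries called 0 of 47, against 7.78% of all genes, with 5 at an unadjusted p under 0.05 (24.7% of all genes). The comparisons share libraries.

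Libraries differed from each other in the level of many of these genes at once. Each gene's deviation from its mean over the 28 libraries was taken on the log2 scale, and the median over the 46 genes without Psmc3ip ran from -0.074 to 0.093 in HOM, from -0.017 to 0.019 in HET and from -0.027 to 0.054 in WT. The median of all tested genes stayed between -0.0044 and 0.0102 in every library, but scaling the libraries over these same genes holds it near 0. It is therefore no yardstick for the 46 genes, and no other group of genes was compared. In HOM 2, 39 of the 46 genes were above that mean, and so were all 14 genes of the 20S core. In HOM 10, 35 of the 46 were below it, and in WT 7, 39 of 46 were above it. The SD of this library value was 0.049 in HOM, 0.013 in HET and 0.027 in WT, and 0.031 in HOM without HOM 1 and HOM 2. For single genes, the median SD was 0.084 in HOM, 0.046 in HET and 0.052 in WT, against 0.12, 0.0998 and 0.094 over all genes tested. Without HOM 1 and HOM 2 the HOM value was 0.057. The SD on the log2 scale was larger in HOM than in WT for 43 of 47 members. The share over all genes tested was not taken, their median SD was also larger in HOM, and the members share libraries. Nothing about the members is therefore read from that count. HOM 1 and HOM 2 are the shallowest libraries of the 28. The part of depth in that spread was not tested. The members' share of all counts was 0.294 ± 0.0103% in HOM, 0.295 ± 0.0033% in HET and 0.295 ± 0.0049% in WT (SD).

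**Figure D4:**
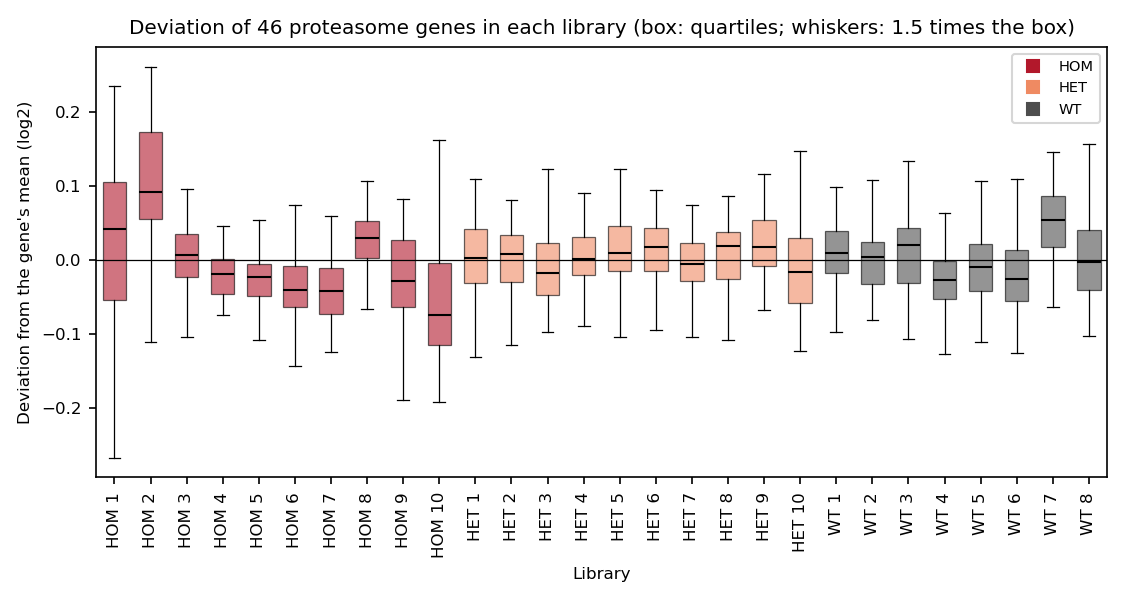
Deviation of the 46 proteasome genes from each gene's mean over the 28 libraries, on the log2 scale (y axis), in every library of HOM (left), HET and WT (x axis), with boxes from the lower to the upper quartile, a line at the median and whiskers of up to 1.5 times the box. The medians of HOM libraries spread from -0.074 to 0.093, those of HET libraries from -0.017 to 0.019.

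Genes that work with the proteasome were taken from 5 lists of 45 genes, of which 43 were tested. In HOM against WT, 1 was called higher and 2 lower. These 3 are 6.98% of the 43, near the 7.61% of all genes, and nothing about the pathway is read from that share. Of the 43, 0 were called in HET against WT or in HOM against HET. Among 16 tested partners of the complex, 0 were higher and 2 lower, with a median of -0.042. Usp14, the deubiquitinase that binds the cap and trims chains, fell. It had 121, 133 and 140 CPM as lowest, median and highest in HOM, 128, 138 and 149 CPM in HET and 136, 147 and 153 CPM in WT. All 10 HOM libraries lay below the WT mean and 7 under the lowest WT library. Its log2 fold change was -0.14 ± 0.030 (SE, edgeR's quasi-likelihood test, adjusted p = 0.0045). Ube3c, a ubiquitin ligase that binds the proteasome, fell to 89.0 ± 2.46 CPM in HOM, against 92.3 ± 2.15 CPM in HET and 93.2 ± 1.81 CPM in WT (SD), a difference of -0.065 ± 0.021 on the log2 scale between HOM and WT (SE, edgeR adjusted p = 0.048).

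Of 6 genes of p97 and its cofactors, which extract proteins for the proteasome, Nploc4 was called higher. It averaged 72.6 ± 4.11 CPM in HOM, 71.2 ± 1.97 CPM in HET and 67.6 ± 3.46 CPM in WT (SD), with 5 HOM libraries above the highest WT library and a difference of 0.10 ± 0.032 on the log2 scale between HOM and WT (SE, edgeR adjusted p = 0.048). Usp14 stayed called in 37 of 37 alternatives, Ube3c in 16 and Nploc4 in 9. The adjusted p of Ube3c ran from 0.0179 to 0.0957 and that of Nploc4 from 0.0209 to 0.125 over these alternatives. Without HOM 1 and HOM 2, Nploc4 had an adjusted p of 0.125 and Ube3c of 0.086. The slope on allele number called the same 3 genes. Some cell type markers moved in the same comparison: 7 of 10 of microglia, 3 of 6 of endothelial and mural cells and 2 of 6 of astrocytes were called higher, and of 5 interneuron markers 1 was higher and 2 lower. Of the markers of oligodendrocytes 0 of 6 were called, of excitatory neurons 0 of 5, of choroid plexus 0 of 4 and of striatum 0 of 5. Of 6 markers of meningeal fibroblasts, 1 was called higher, Col1a1, at a log2 fold change of 0.79 and an adjusted p of 0.031, and the median of the 6 was 0.56. Their part in the values of these 3 genes was not tested. The 5 tested regulators of proteasome genes had 0 calls, and Nfe2l1 itself, the factor that induces the proteasome, had -0.057 and an adjusted p of 0.122. The 6 ubiquitin and E1 genes had 0 calls. The 10 antigen processing genes had 0, and Tapbp, the tapasin that loads peptides, had 0.12 and an adjusted p of 0.069. Some genes not called in the main fit were called in a few of the 37 alternatives. These were Nfe2l1 in 3, Tapbp in 1 and the partners Uchl5 in 5 and Rad23b in 2.

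**Figure D5:**
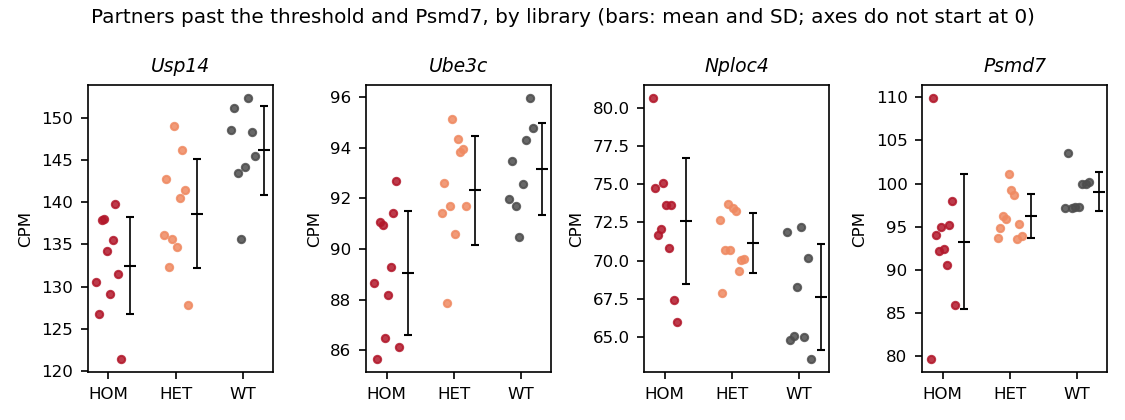
CPM of Usp14, Ube3c and Nploc4, the pathway genes called in HOM against WT, and of the member Psmd7, in every library of HOM (left), HET and WT with the mean and SD. Axes do not start at 0. Usp14 spans 121 to 140 CPM in HOM, against 136 to 153 CPM in WT, and 1 HOM point of Psmd7 lies above all WT points.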

How the data were processed

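PolyA RNA from snap-frozen frontal cortex was extracted with TRIsure and RNeasy and made into libraries with Illumina's stranded mRNA kit at a shortened fragmentation, per the labels' protocols. Reads were trimmed with Trim Galore 0.4.3 and aligned with HISAT2 2.0.5 on GRCm38, per the submitters' processing notes. Not given in the sources used here are the tool that counted reads, whether it used strand, and the annotation. The values the authors deposited are raw read counts per gene, whole numbers and not normalised, in 28 columns matched to 28 libraries by title. Identifiers in several rows (57 in 122 of 25965 rows) were summed to 25900 genes. Coordinates are those of the deposited table.

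edgeR 4.0.16 in R 4.3.3 filtered genes with filterByExpr (16110 left), scaled libraries by TMM and tested with a robust quasi-likelihood fit, two-sided, with Benjamini-Hochberg adjustment over all genes and a threshold of 0.05, using 1 mean for each genotype and adding no covariate. The slope on alleles was a separate fit. CPM are TMM-scaled. DESeq2 1.42.0, limma 3.58.1 voom with a quality weight for each library, and other filters, scalings and left-out libraries were alternatives. Over 378 pairs of libraries, chi-square per degree of freedom was at least 6.12, so none agreed within sampling noise. Depth per library, with a median of 53.5 M, and a biological coefficient of variation of 8.46% set the precision. Lengths came from GENCODE vM21. The members, classes and lists were chosen with earlier results of these data known. Genes described in every group were, by rule, the 6 catalytic genes, the activators and inhibitor, and in each class the smallest p in HOM against WT and the highest level per length. Of the other lists, genes past the threshold were named, or otherwise the smallest p. The lid genes Psmd6, Psmd12, Psmd14 and Shfm1, the partners Uchl5 and Rad23b, and Cd4, were added after their values were seen. The value of 1 gene of the ubiquitin list is not reported here.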

Additional observations from a re-analysis of the deposited data

Results flagged for a closer look

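Among 162 groups of libraries checked, 18 had a single library far from the others of its genotype by Dixon's test. Chance alone flags about 1 in 20 independent groups. These groups share libraries, so the number of flags is not compared with that share. HOM 2 and HOM 1, the 2 shallowest libraries, gave most of them, all at the high end. HOM 2 had 72.5 CPM of Psma4 (the other HOM libraries 56.7 to 64.2), 79.4 of Psma7 (64.4 to 71.8), 52.0 of Psmb3 (41.4 to 45.2), 106.0 of Psmd4 (83.9 to 90.7), 11.5 of Psmg3 (7.89 to 9.36) and 4.32 of Psmg4 (2.77 to 3.49), and 0.316% of its counts were in the members (0.281 to 0.299%). HOM 1 had 29.8 CPM of Psmb10 (23.5 to 26.6), 98.5 of Psmb4 (80.2 to 88.2), 80.8 of Psmd8 (65.9 to 71.7), 110.6 of Psme3 (90.2 to 100.4) and 13.1 of Psmg2 (10.6 to 11.8).

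In HET, HET 1 had 89.1 CPM of Psmb4 (83.7 to 86.6), HET 9 had 11.7 of Psme2 (13.2 to 14.4) and HET 10 had 357.8 of Tardbp (312.6 to 336.0). In WT, WT 7 had 96.3 CPM of Psmc2 (85.7 to 90.6) and 72.7 of Psmd12 (64.2 to 68.0), and WT 2 had 103.5 of Psmd7 (97.1 to 100.2).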

How the results depend on the processing

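Of the counts of members called, that of HOM against WT and that of the slope were 0 in all alternatives except 2: without HOM replicate 2 and without the 2 shallowest libraries each count was 1, Psmd7. Leaving out 1 library at a time, the counts ran from 0 to 1 in both. In the slope Psmd7 had adjusted p-values of 0.0180 and 0.0188 there. HET against WT and HOM against HET stayed at 0 in every alternative run. The members' median log2 fold change in HOM against WT was -0.0146 to 0.0071 with 1 library left out and -0.025 without the shallowest 2, with 18 to 25 and 18 members above 0. Of 1739 member values recomputed, 81 changed sign, all of genes not called, and 34 of 47 members kept their sign in all 37 alternatives. With the longest transcript as length, an alternative for the ratios chosen after seeing the data, the median member was at 34.1 reads per kilobase per 1e6 counts, and the log2 ratios in HOM were -4.99 for Psmb8 to Psmb5, -7.01 for Psmb9 to Psmb6 and -0.76 for Psmb10 to Psmb7, where only the lengths differ.

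Calls over all genes in HOM against WT were 1226 and moved by over 1.5 times with the 2 libraries at the ends of the first principal component left out (509), without WT replicate 2 (725) or WT replicate 6 (595) and with the replicate block (738). Correlations of same-numbered deviations ran from -0.16 to 0.18 and 5 of 26 were over 0.1. Differently numbered libraries were not compared with these, so whether the replicate numbers pair the libraries was not tested. With the replicate block, 0 members were called in each of the 4 tests, the median was 0.0051 and 25 were above 0. HET against WT had 0 and 12 calls over all genes with edgeR and DESeq2, and 14 with voom, HOM against HET 6, 50 and 42. The intervals of HOM over WT were widest for Psmb9 and Psmc3ip, the members with the fewest counts; what widened them was not tested.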
